A study of Mus musculus with 12 samples.

Results

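Between postnatal day 10 (P10) and postnatal day 14 (P14) the mouse begins to hear airborne sound. The comparison set the 2 P14 arrays against the 2 P10 arrays, 4 of the 12 arrays of a series that runs from P0 to P21 with 2 arrays at each of 6 stages, and it took in all 45037 probe sets that are not array controls. Both groups were untreated CBA/CaJ mice of the same colony, aged 14 days and 10 days, and both genders were used. Per the labels, each array holds RNA of the left and right cochlea of 1 mouse, from which the bony shell and the lateral wall had been removed; per the study's methods most of the sensory epithelium was removed too. The modiolus was left, the central pillar of the cochlea through which the auditory nerve runs, so the tissue was enriched for nerve but was not pure. The 2 arrays of each age limit the precision. In such bulk tissue, fewer cells of a type and less RNA per cell cannot be told apart.

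The auditory nerve is made of the axons of spiral ganglion neurons, which carry the output of hair cells to the cochlear nucleus in the brainstem. Schwann cells wrap the peripheral part of each axon in myelin and oligodendrocytes wrap the central part. Before hearing begins these neurons fire in spontaneous bursts, and around its onset they take on the sodium and potassium channels, the nodes of Ranvier and the release machinery that fast, timed firing requires. The modiolus also has a bony wall with marrow spaces, so blood-forming cells can come with the tissue.

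Levels are log2 values from RMA, a method that corrects background, gives all arrays one distribution and summarises each probe set; a difference of 1 is therefore a 2-fold difference. Array medians lay between 6.70 and 6.79 over the 12 arrays. The 2 P14 arrays correlated at 0.9939 over probe sets, with 2.8% of them over 1.5-fold apart, and the 2 P10 arrays at 0.9959, with 1.7%. The 3′ signal of Actb on its control probe sets exceeded the 5′ signal, a gap that widens as RNA is degraded. The log2 gap was 1.08 and 1.41 at P14, against 0.99 and 0.97 at P10, and 2.32 and 2.03 at P21. The 2 P21 arrays correlated at 0.991, with 6.3% of probe sets over 1.5-fold apart.

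Transcripts of the sex chromosomes went against 1 mouse per array on several arrays. Xist, transcribed from the inactive X chromosome of females, stood at 12.87 and 13.36 at P14, against 12.91 and 12.84 at P10. The mean of 3 genes of the Y chromosome, Eif2s3y, Kdm5d and Uty, was 8.27 and 3.70 at P14, against 8.78 and 8.54 at P10. P14 replicate 2 thus had the pattern of a female, whereas P14 replicate 1 and both P10 arrays carried Xist and Y-linked RNA together; 7 of the 12 arrays, these included, had both at a level over 7. Whether tissue of more than 1 mouse entered those samples was not tested, and the difference in Y-linked genes between the ages is not read as one of age.

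With the spread borrowed from all 12 arrays, 0 of 45037 probe sets (0.0%) were called, that is, had an adjusted p under 0.05 in limma and a fold over 1.5. The lowest adjusted p was 0.0866, for Cyp2f2. At an unadjusted p under 0.05 there were 3472 probe sets (7.71%), and 729 of these (1.62%) also passed the fold limit, 460 higher at P14 (1.02%) and 269 lower (0.597%). The earlier step, P10 against P7, gave 104 calls (0.231%), 47 higher (0.104%) and 57 lower (0.127%), and the later step, P21 against P14, gave 1105 (2.45%), 325 higher (0.722%) and 780 lower (1.73%); these steps share the P10 and the P14 arrays with the comparison made here. The P21 arrays had a wider Actb gap and agreed less with each other than the P14 arrays, as given above. Whether calls between P21 and P14, here and below, come from this was not tested. In what follows no gene is called between P14 and P10. The text gives levels, the fitted difference with its SE, and whether the 2 P14 arrays lay above or below both P10 arrays.

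**Figure D1:**
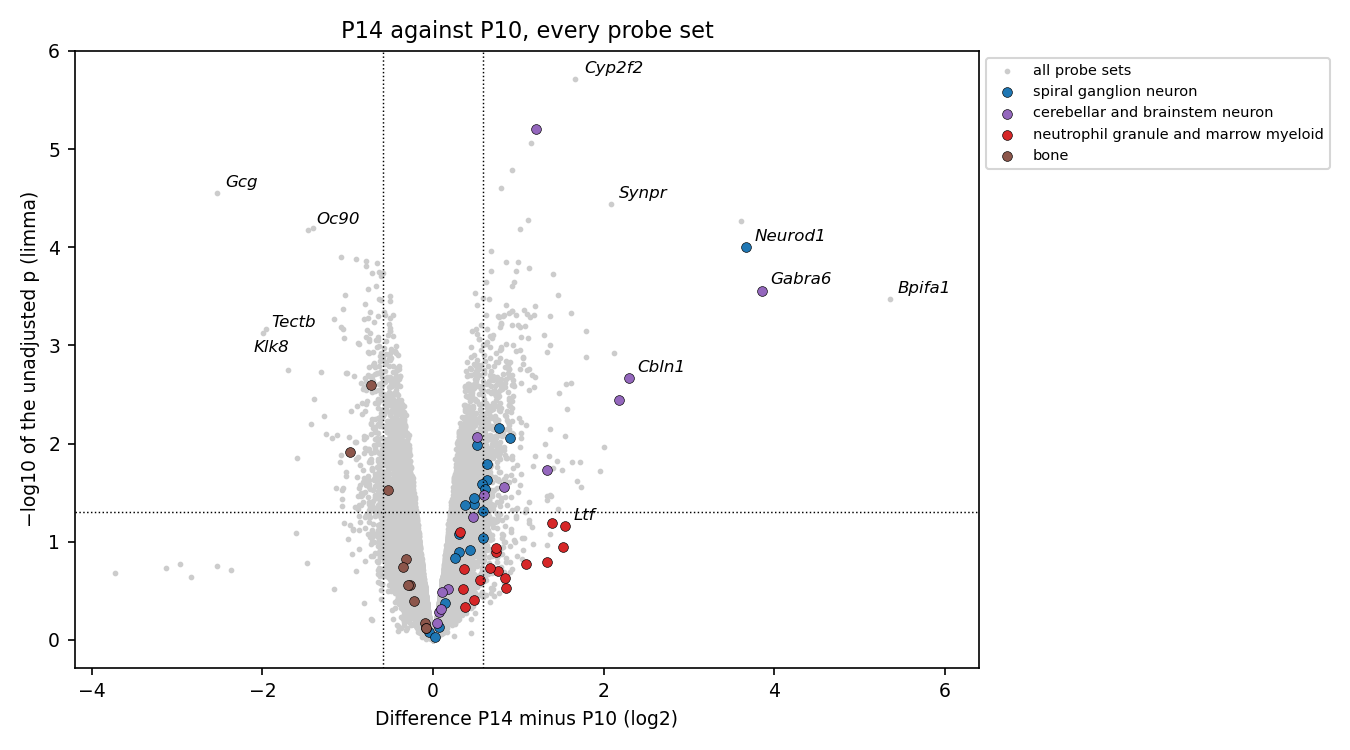
Difference between P14 and P10 (log2, x axis) against −log10 of the unadjusted p (y axis) for 45037 probe sets (grey), with the members of 4 gene lists in colour. Dotted lines mark a 1.5-fold difference and an unadjusted p of 0.05; Bpifa1 lies farthest right at 5.35, and the neutrophil genes lie to the right but low, since their P14 arrays are far apart.

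The absence of calls turned on single arrays. Without P14 replicate 2 there were 77 calls, 73 of them higher, and without either P21 array there were 27, 26 of them higher; without any other single array there were 0 to 2. Leaving out P14 replicate 2 leaves replicate 1 alone for that age. The calls then included neutrophil, erythroid and cell cycle genes such as Ltf, Gata1 and Mcm2, beside En2 and Pcp2. The P21 arrays are not part of the contrast, so leaving 1 of them out changes only the borrowed spread. The calls then included Gabra6, Neurod1 and Synpr. With the 4 arrays of the comparison fitted alone, 9 probe sets were called, all higher. Their named genes were Bpifa1, Cbln1, Cyp2f2, Diras2, Gabra6, Gabrb2 and Neurod1. The other fits of all probe sets gave 0 to 2 calls, and the average of each gene's probe sets gave 3 called genes.

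**Figure D2:**
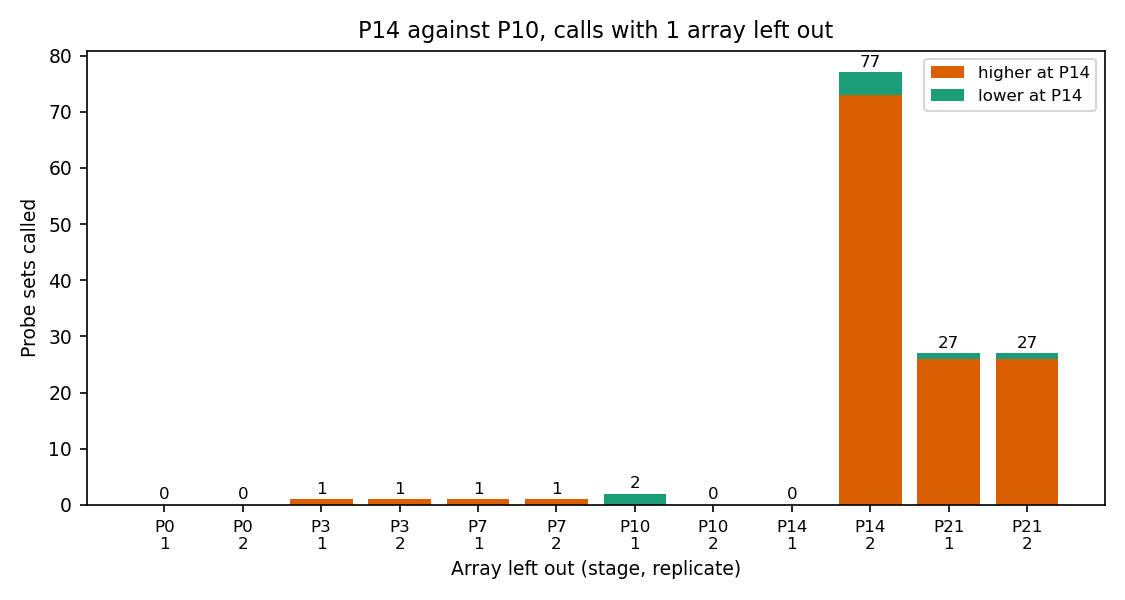
Number of probe sets called (y axis) between P14 and P10 after leaving out each of the 12 arrays in turn (x axis, stage and replicate), split into higher and lower at P14. Leaving out P14 replicate 2 gives 77 calls and leaving out either P21 array gives 27, while each other array gives 0 to 2.

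In the lists of spiral ganglion neurons and of synaptic vesicle release most members lay above on both P14 arrays. Over all 18201 genes, each represented by its brightest probe set, both P14 arrays lay above both P10 arrays in 20.2% and below in 20.2%, the median difference was 0, and 1.46% were higher and 0.643% lower at an unadjusted p under 0.05 with a fold over 1.5. Of 21 genes of spiral ganglion neurons, 18 were above on both P14 arrays and 0 below, 7 passed the unadjusted limit and the median difference was 0.48. Of 22 genes of synaptic vesicle release, 19 were above and 1 below, 7 passed the limit and the median was 0.51. These medians kept their sign when any 1 of the 4 arrays was left out, between 0.41 and 0.50 for the spiral ganglion list and between 0.45 and 0.58 for the release list. Averaged over the list, spiral ganglion genes were at 10.52 and 10.55 at P14, against 9.98 and 9.92 at P10. Release genes were at 9.79 and 9.70 at P14, against 9.26 and 9.24 at P10. At P21 the means were 10.20 and 10.78 for spiral ganglion genes and 9.41 and 10.04 for release genes. The 2 P21 arrays thus stood apart by about as much as P14 and P10 did, with P21 replicate 1 below both P14 arrays.

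Among channels and pumps that set how a neuron fires, 16 of 23 genes were above on both P14 arrays and 0 below. Of them 8 passed the unadjusted limit, and the median of the list was 0.32. The list averaged 9.50 and 9.48 at P14, against 9.13 and 9.06 at P10, and 9.34 and 9.79 at P21. Scn8a, the sodium channel of mature nodes, had the largest difference of the list. Its level was 11.01 and 10.89 at P14, against 10.15 and 9.70 at P10, a difference of 1.02 ± 0.31 (SE, 2.03-fold, adjusted p = 0.451). Kcnc1, a Kv3 potassium channel that repolarises fast-firing neurons, stood at 11.39 and 11.36 at P14, against 10.51 and 10.46 at P10, a difference of 0.89 ± 0.24 (adjusted p = 0.403). The arrays of each age lay close together for Kcnc1, the P10 arrays of Scn8a were farther apart, and in neither gene did the ages overlap.

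Further potassium channels had the same order. Kcnc2, another Kv3 channel, was at 10.83 and 10.50 at P14, against 9.83 and 9.94 at P10. Kcna2, a Kv1 channel placed beside the node, was at 11.94 and 11.75 at P14, against 11.32 and 10.93 at P10. Kcnd2, a channel of the transient A-type current, was at 9.04 and 9.33 at P14, against 8.12 and 8.27 at P10. Their differences were 0.78, 0.72 and 0.99, with adjusted p from 0.413 to 0.584.

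At the node of Ranvier, the gap in the myelin where the impulse is renewed, 8 of 14 genes were above on both P14 arrays and 1 below, with 2 past the unadjusted limit and a median of 0.22. Sptbn4, the spectrin that anchors nodal channels, stood at 9.11 and 9.21 at P14, against 8.33 and 8.12 at P10 (difference 0.94 ± 0.24, adjusted p = 0.391). Cntn2, an adhesion protein beside the node, stood at 8.12 and 8.48 at P14, against 7.55 and 7.64 at P10 (difference 0.71 ± 0.24, adjusted p = 0.507). The 2 genes are the ones of the list that passed the limit.

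Of the release machinery, Syt2, the fast calcium sensor of vesicle fusion, differed most. It was at 10.46 and 10.15 at P14, against 9.38 and 9.45 at P10, a difference of 0.89 ± 0.26 (1.85-fold, adjusted p = 0.439). Syn1, which tethers vesicles, was at 8.68 and 8.34 at P14, against 7.68 and 7.58 at P10. Pclo, a scaffold of the active zone, was at 9.07 and 8.80 at P14, against 8.47 and 8.08 at P10. The differences of Syn1 and Pclo were 0.88 and 0.66, and in neither gene did the ages overlap.

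Single genes of the spiral ganglion neuron list had unequal differences. The neurofilament gene Nefh, a marker of large myelinated axons, stood at 13.35 and 13.34 at P14, against 13.02 and 12.71 at P10. Pou4f1, a transcription factor of sensory neurons, stood at 8.60 and 8.51 at P14, against 7.69 and 7.89 at P10 (difference 0.77 ± 0.23, adjusted p = 0.44). Gata3, which specifies auditory neurons, stood at 10.28 and 11.07 at P14, against 10.68 and 10.78 at P10, so its ages overlapped. Prph, a marker of the unmyelinated type II neurons, was near 6 on all 4 arrays (6.05 and 6.12 at P14, against 6.08 and 6.06 at P10). Rbfox3, the nuclear protein NeuN of mature neurons in general, was at 11.04 and 11.01 at P14, against 9.95 and 10.30 at P10 (difference 0.90 ± 0.28, adjusted p = 0.458).

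Genes of central neurons moved with these lists. The list of cerebellar and brainstem neurons had 12 of 14 members above on both P14 arrays and 0 below, 7 past the unadjusted limit and a median of 0.56. Its mean level was 8.46 and 8.36 at P14, against 7.42 and 7.44 at P10. Whether the higher values of the neuron lists come from central neurons in the dissected tissue was not tested.

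Neurod1, a transcription factor of differentiating neurons that spiral ganglion neurons and cerebellar granule cells both use, differed most among the genes of neuronal lists after Gabra6. Neurod1 was at 9.61 and 10.16 at P14, against 6.34 and 6.09 at P10, a difference of 3.67 ± 0.59 (12.7-fold, adjusted p = 0.301). Gabra6, a GABA receptor subunit typical of granule cells, was at 8.50 and 9.23 at P14, against 5.24 and 4.80 at P10, a difference of 3.85 ± 0.71 (14.4-fold, adjusted p = 0.328). Both P14 arrays were far above both P10 arrays, and the P10 levels of Gabra6 lay near the 25th percentile of their arrays, 5.10 and 5.13. On the P21 arrays the 2 replicates stood apart: Neurod1 was at 6.91 and 9.06 and Gabra6 at 6.92 and 9.92. With the 4 arrays of the comparison fitted alone the adjusted p was 0.019 for Neurod1 and 0.0306 for Gabra6, and without either P21 array it was 0.0186 and 0.0024.

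Cbln1, a secreted organiser of granule cell synapses, was at 9.86 and 10.27 at P14, against 7.92 and 7.61 at P10 (difference 2.30 ± 0.56, adjusted p = 0.362). Its relative Cbln3 was at 7.77 and 8.10 at P14, against 6.59 and 6.59 at P10. En2, a homeobox gene of the midbrain and cerebellum, was at 6.0 and 6.35 at P14, against 4.94 and 5.0 at P10, below the 25th percentile of those arrays, and at P21 it was lower than at P14 by a called difference (−0.87, adjusted p = 0.0175). These 3 genes were high on both P14 arrays.

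Zic1, a zinc finger gene of granule cells, and 2 genes typical of Purkinje cells gave smaller or less even differences on their brightest probe sets. Zic1 was at 11.65 and 11.34 at P14, against 10.84 and 10.94 at P10. Its other probe set had a larger difference, 1.33 (10.57 and 10.33 at P14, against 9.20 and 9.04 at P10). Car8, a carbonic anhydrase-related protein, was at 9.19 and 7.29 at P14, against 5.77 and 6.35 at P10, and it was also at 8.78 and 9.10 at P7. Pcp2 was at 7.25 and 5.91 at P14, against 5.68 and 5.82 at P10. A further probe set of Pcp2 differed by 2.12 (8.40 and 6.36 at P14, against 5.14 and 5.37 at P10), and another by −0.11. Purkinje cell genes were therefore highest on P14 replicate 1 among the 4 arrays, while Neurod1, Gabra6 and Cbln1 were highest on P14 replicate 2.

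**Figure D3:**
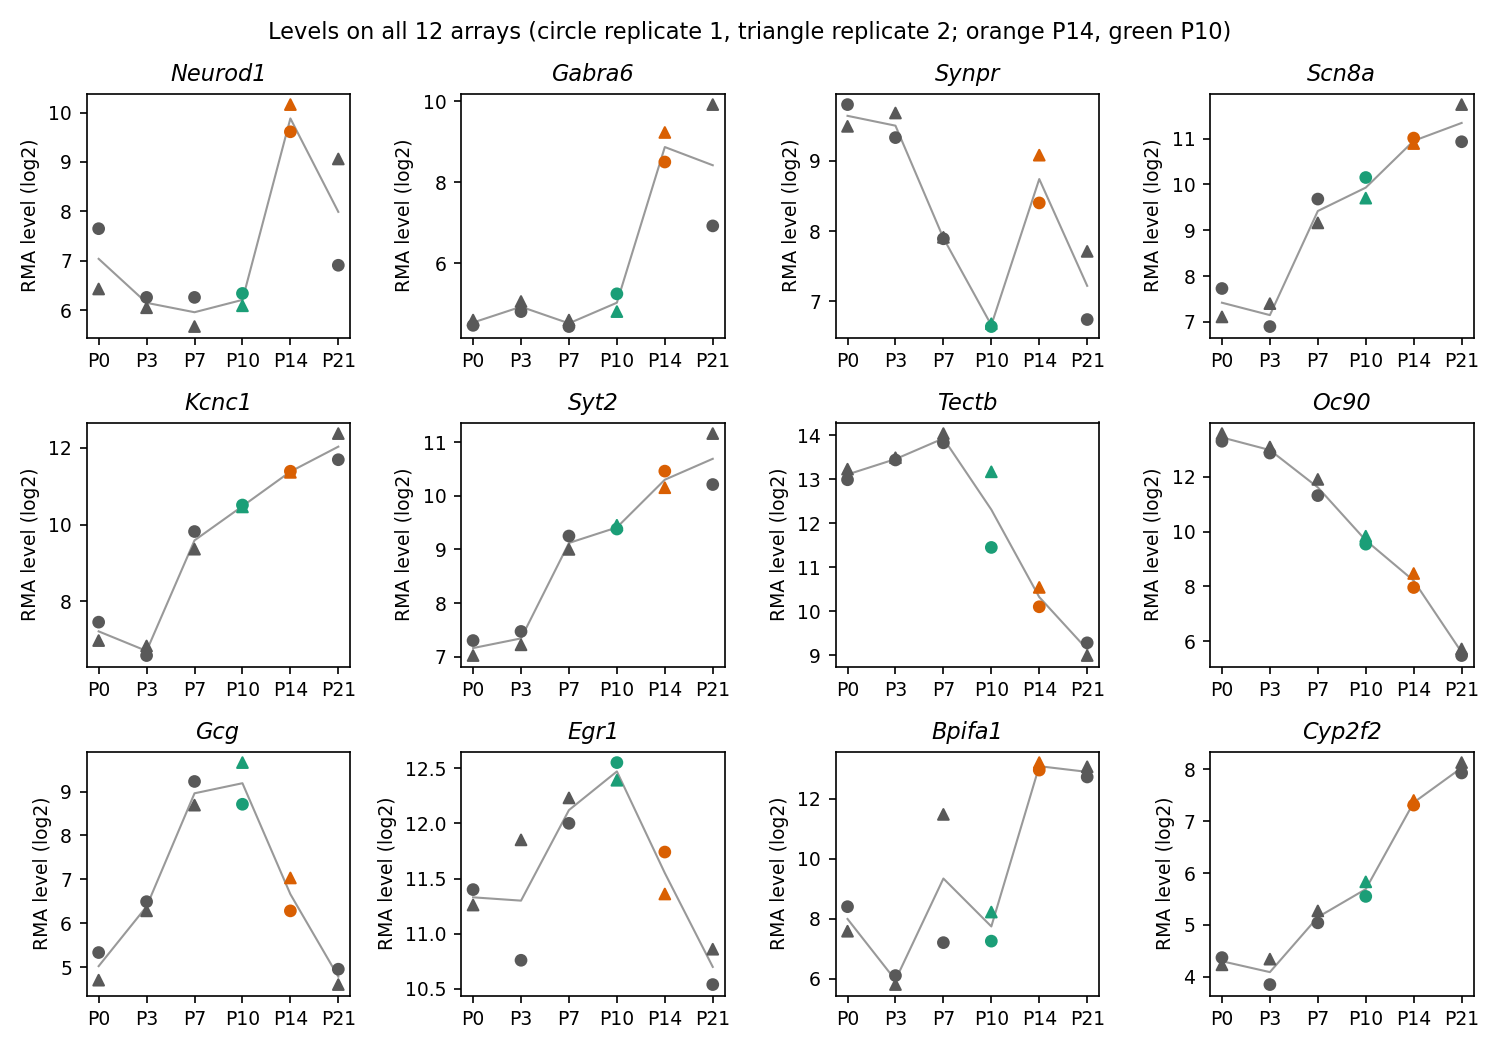
RMA levels (log2, y axis) of 12 genes on all 12 arrays by stage (x axis), with circles for replicate 1, triangles for replicate 2, P14 in orange, P10 in green and lines through the stage means. Neurod1 and Gabra6 are high on both P14 arrays and apart on the P21 arrays, the stage means of Scn8a, Kcnc1 and Syt2 are higher at each stage from P3 to P21, and Tectb and Oc90 are lower at P14 than at P10.

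Inhibitory signalling gave another uneven list. Of 15 genes of GABA and glycine signalling 6 were above on both P14 arrays and 1 below, 4 passed the unadjusted limit and the median was 0.29, which was 0.06 without P14 replicate 2. Slc12a5, the chloride exporter that makes GABA inhibitory in mature neurons, stood at 8.40 and 8.46 at P14, against 7.15 and 6.45 at P10 (difference 1.63 ± 0.56, adjusted p = 0.511). Gabrb2, a GABA receptor subunit, stood at 8.07 and 7.95 at P14, against 6.42 and 6.15 at P10 (difference 1.73 ± 0.59, adjusted p = 0.511). Gad1, which makes GABA, stood at 8.15 and 7.43 at P14, against 6.67 and 5.88 at P10. For glutamate receptors, 6 of 13 were above on both P14 arrays, 2 below and 0 past the limit, with a median of 0.32, which was 0.05 without P10 replicate 2.

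Synpr, a synaptic vesicle protein outside these lists and named after its values were seen, was at 8.40 and 9.08 at P14, against 6.64 and 6.68 at P10, a difference of 2.08 ± 0.30 (4.23-fold, adjusted p = 0.233). Its levels did not follow age, since they were 7.89 and 7.91 at P7 and 6.74 and 7.71 at P21. Of 26 genes of axon growth and guidance 7 were above and 6 below on both P14 arrays, with a median of 0.05. L1cam, an axonal adhesion protein, differed most (9.74 and 9.58 at P14, against 8.96 and 9.03 at P10).

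**Figure D4:**
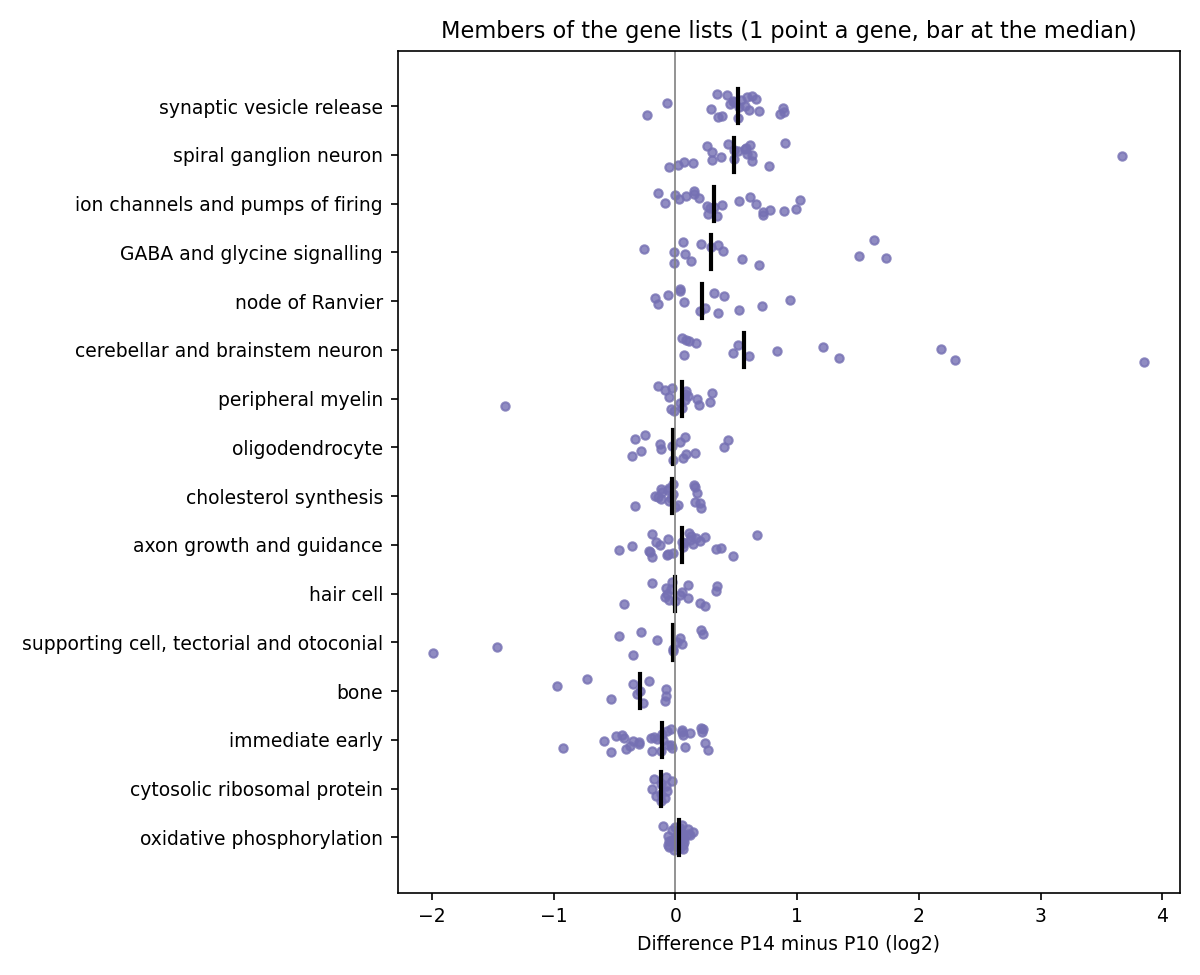
Difference between P14 and P10 (log2, x axis) of each member of 16 gene lists (y axis), with a bar at the median of the list. Medians of the neuronal lists at the top lie between 0.22 and 0.56, those of myelin, oligodendrocyte and cholesterol genes within 0.05 of 0, and that of bone at −0.29.

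Most myelin genes differed little between the ages. Of 17 genes of peripheral myelin 5 were above and 2 below on both P14 arrays, with a median of 0.05. Mbp, a main protein of compact myelin, stood at 14.36 and 14.45 at P14, against 14.40 and 14.31 at P10, and Pmp22 at 14.30 and 14.37 at P14, against 14.38 and 14.31 at P10. Pmp2, a lipid-binding protein of Schwann cell myelin, was an exception and stood at 8.44 and 8.69 at P14, against 9.52 and 10.41 at P10, a difference of −1.40 ± 0.37 (adjusted p = 0.403). It was lower again at P21, by a called difference of −1.93 (adjusted p = 0.027).

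Other glial lists had small medians too. It was −0.02 for oligodendrocytes (2 of 15 above, 2 below; −0.20 to 0.16 with 1 of the 4 arrays left out), 0.20 for astrocytes (6 of 11 above, 0 below), 0.11 for immature Schwann cells (6 of 12 above, 1 below) and −0.03 for cholesterol synthesis (6 of 20 above, 5 below), whose product goes into myelin. Klk6, a protease of oligodendrocytes named after its values were seen, was at 7.58 and 7.64 at P14, against 6.86 and 6.23 at P10 (difference 1.06 ± 0.21, adjusted p = 0.328). Its difference between P21 and P14 was called, at 2.24 (adjusted p = 0.00229).

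Lower at P14 were a few genes of the inner ear epithelium and of bone. Tectb, a protein of the tectorial membrane that lies over the hair cells, was at 10.10 and 10.54 at P14, against 11.45 and 13.17 at P10, a difference of −1.99 ± 0.42 (3.97-fold lower, adjusted p = 0.346). Oc90, a protein of the otoconia and their fluid, was at 7.96 and 8.47 at P14, against 9.54 and 9.83 at P10, a difference of −1.47 ± 0.23 (adjusted p = 0.249). The 2 P10 arrays were apart for Tectb and close for Oc90, and the P14 arrays lay below both. For Oc90 the steps on either side were called, at −1.92 for P10 against P7 (adjusted p = 0.017) and at −2.62 for P21 against P14 (adjusted p = 0.00196).

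These 2 genes did not speak for their list. Of 13 genes of supporting cells, tectorial membrane and otoconia 1 was above and 4 below on both P14 arrays, with 2 past the unadjusted limit and a median of −0.02. Of 17 hair cell genes 5 were above and 2 below, with a median of 0.00. Among 18 genes of the lateral wall and pigment cells 2 were above and 4 below, the median was −0.22 with both signs as single arrays were left out, and Slc26a4, an anion exchanger of the inner ear, differed most (10.06 and 10.22 at P14, against 9.45 and 8.88 at P10).

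Bone genes were lower, more so on P14 replicate 2. Of 11 genes 0 were above and 6 below on both P14 arrays, 2 passed the unadjusted limit and the median was −0.29, which was −0.10 without P14 replicate 2 and −0.47 without P14 replicate 1. Ifitm5, a membrane protein of bone-forming cells, stood at 9.98 and 9.16 at P14, against 10.12 and 10.96 at P10 (difference −0.97 ± 0.32, adjusted p = 0.49). Dlx5 and Sp7, transcription factors of those cells, had differences of −0.73 and −0.53. Of 16 cartilage genes 3 were above and 5 below (median −0.03), and Acan, the aggrecan of cartilage and of nets around fast-firing neurons, stood at 9.62 and 9.55 at P14, against 9.05 and 8.62 at P10. Of 25 genes of fibrous matrix 4 were above and 7 below (median −0.07). Of these genes 22 of 25 were higher on P14 replicate 1 than on replicate 2, and 19 lay below both P10 arrays on replicate 2. The shares of all genes that did so were not counted. The median of the list was 0.09 without replicate 2 and −0.25 without replicate 1. Eln, elastin, stood at 8.66 and 8.39 at P14, against 9.11 and 9.20 at P10.

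Genes of blood and marrow were high on 1 P14 array only. Averaged over the list, 17 genes of neutrophil granules and marrow myeloid cells were at 9.88 and 7.73 at P14, against 8.33 and 7.65 at P10. All 17 were higher on P14 replicate 1 than on both P10 arrays, 15 were over 2-fold higher on P14 replicate 1 than on replicate 2, and on replicate 2 only 1 lay above both P10 arrays while 9 lay below. The share of all genes with a single P14 array above or below both P10 arrays was not counted. Nor was the share of all genes higher on P14 replicate 1 than on replicate 2 by any amount. Such counts, here and for the other lists, therefore stand without a background. The median difference of the list was 0.74, against 1.65 without P14 replicate 2 and −0.28 without P14 replicate 1.

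Camp, an antimicrobial peptide of neutrophil granules, stood at 12.83 and 10.00 at P14, against 11.08 and 10.05 at P10. Ltf, lactoferrin, stood at 11.26 and 8.04 at P14, against 8.58 and 7.62 at P10. Cd177, a surface protein of neutrophils, stood at 7.99 and 5.05 at P14, against 5.19 and 5.08 at P10. In each of them P14 replicate 1 was the highest of the 4 arrays and replicate 2 lay among the P10 values or below them. Ngp (13.17 and 10.36 at P14, against 11.42 and 9.92 at P10) and Mpo, the peroxidase of granules (10.56 and 8.05 at P14, against 8.86 and 8.07 at P10), had the same order, with P10 replicate 1 second. With all arrays the differences of Ltf and Cd177 were 1.55 and 1.39, with adjusted p in limma of 0.685 and 0.678. These differences were 3.16 and 2.85 without P14 replicate 2, and −0.06 and −0.09 without P14 replicate 1.

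Genes of red cell precursors were also highest on P14 replicate 1. The 16 erythroid genes averaged 8.73 and 7.35 at P14, against 7.52 and 7.45 at P10, 15 were above both P10 arrays on P14 replicate 1 and 2 on replicate 2, and 11 lay below both on replicate 2. Klf1, the master regulator of red cell genes, was at 10.10 and 8.17 at P14, against 8.54 and 8.11 at P10. Hemgn was at 11.44 and 9.41 at P14, against 9.52 and 9.49 at P10. Rhag, a gas channel of the red cell membrane, was at 9.24 and 6.94 at P14, against 7.04 and 7.05 at P10. Slc4a1, the anion exchanger of red cells, was at 12.21 and 10.59 at P14, against 10.79 and 10.68 at P10, so that P14 replicate 1 was the high array for each of them.

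The sequences before the starts of 3 genes of each kind are shown because these genes were high together on P14 replicate 1. They are the 150 bases before the start in RefSeq's mouse build GRCm38.p6, read 5′ to 3′ along the gene's strand. Capitals mark GATA-type motifs (AGATAA or TGATAA on either strand) in the erythroid genes and C/EBP-type motifs (TTGCNNAA on either strand) in the neutrophil genes. Both motifs were chosen after others had been searched. Neither motif was counted in the genes of the other kind, and the window of Ltf also holds an unmarked AGATAA.
Klf1, chr8:84901832-84901981, plus strand: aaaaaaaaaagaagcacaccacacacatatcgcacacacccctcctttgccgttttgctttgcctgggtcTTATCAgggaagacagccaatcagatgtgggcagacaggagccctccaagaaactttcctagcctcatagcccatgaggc
Hemgn, chr4:46404184-46404333, minus strand: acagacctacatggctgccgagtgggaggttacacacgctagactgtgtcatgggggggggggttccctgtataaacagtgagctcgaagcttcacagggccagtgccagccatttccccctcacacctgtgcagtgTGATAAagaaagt
Rhag, chr17:40810999-40811148, plus strand: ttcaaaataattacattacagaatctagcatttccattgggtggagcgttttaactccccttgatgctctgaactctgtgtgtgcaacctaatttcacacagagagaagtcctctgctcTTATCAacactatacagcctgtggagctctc
Ngp, chr9:110419658-110419807, plus strand: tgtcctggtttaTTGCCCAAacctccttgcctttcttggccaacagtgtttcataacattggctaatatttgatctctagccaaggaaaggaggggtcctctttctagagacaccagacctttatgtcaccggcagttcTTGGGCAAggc
Ltf, chr9:111019142-111019291, plus strand: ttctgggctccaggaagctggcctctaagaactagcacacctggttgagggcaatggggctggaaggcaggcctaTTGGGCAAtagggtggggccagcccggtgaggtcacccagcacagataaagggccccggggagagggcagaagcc
Camp, chr9:109849457-109849606, minus strand: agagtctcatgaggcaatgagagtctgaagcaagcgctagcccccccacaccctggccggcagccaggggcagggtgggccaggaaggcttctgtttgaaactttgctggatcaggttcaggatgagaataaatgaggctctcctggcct
A GATA-type match began 80 bases before the start of Klf1, 31 before that of Rhag and 13 before that of Hemgn. Such a match was in any window of 7 of 13 erythroid genes (53.8%) and in 9.65% of all 32851 windows. A gene counted once if any of its windows matched. The list shares are therefore of genes and the shares over all are of windows, which are unlike units. C/EBP-type matches began 138 and 11 bases before the start of Ngp and 75 before that of Ltf, with 0 in the window of Camp. They were in any window of 4 of 17 genes of the neutrophil list (23.5%) and in 5.46% of all windows. These are matches of letters, with no measurement of binding.

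The B cell, megakaryocyte and pan-leukocyte lists were also highest on P14 replicate 1, and they differed in where replicate 2 lay. The 16 B cell genes averaged 8.32 and 7.05 at P14, against 7.33 and 7.16 at P10, with 16 above both P10 arrays on P14 replicate 1. Vpreb1, part of the surrogate light chain of B cell precursors in marrow, was at 9.89 and 8.65 at P14, against 8.58 and 8.71 at P10. Igll1, the other part, was at 9.17 and 8.17 at P14, against 7.71 and 8.13 at P10. The 9 megakaryocyte and platelet genes averaged 8.34 and 7.04 at P14, against 7.00 and 6.93 at P10, with 8 above both P10 arrays on replicate 1 and 5 on replicate 2. Ppbp, a chemokine of platelets, was at 10.82 and 8.10 at P14, against 7.86 and 7.60 at P10, and its difference of 1.73 ± 0.67 (adjusted p = 0.568) was 0.37 without P14 replicate 1. The 18 pan-leukocyte genes averaged 9.01 and 8.01 at P14, against 8.27 and 8.09 at P10.

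Basophil and eosinophil genes divided. Mcpt8, a protease of basophils, was at 7.49 and 5.45 at P14, against 5.21 and 5.49 at P10. Prg2, the major basic protein of eosinophil granules, was at 10.81 and 9.18 at P14, against 10.01 and 8.01 at P10, so that its P10 arrays were farther apart than its P14 arrays. The list of 10 eosinophil, basophil and mast cell genes averaged 6.30 and 5.76 at P14, against 5.79 and 5.50 at P10.

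The T and NK cell list and the macrophage list did not stand out on P14 replicate 1. The 12 T and NK cell genes averaged 6.01 and 5.93 at P14, against 5.87 and 5.95 at P10, with a median difference of 0.06. The 18 macrophage genes averaged 9.24 and 9.02 at P14, against 9.40 and 9.25 at P10, with 0 above and 9 below on both P14 arrays and a median of −0.19. Ms4a7, a membrane protein of macrophages, was at 8.49 and 8.56 at P14, against 9.08 and 9.05 at P10 (difference −0.54 ± 0.22, adjusted p = 0.589).

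**Figure D5:**
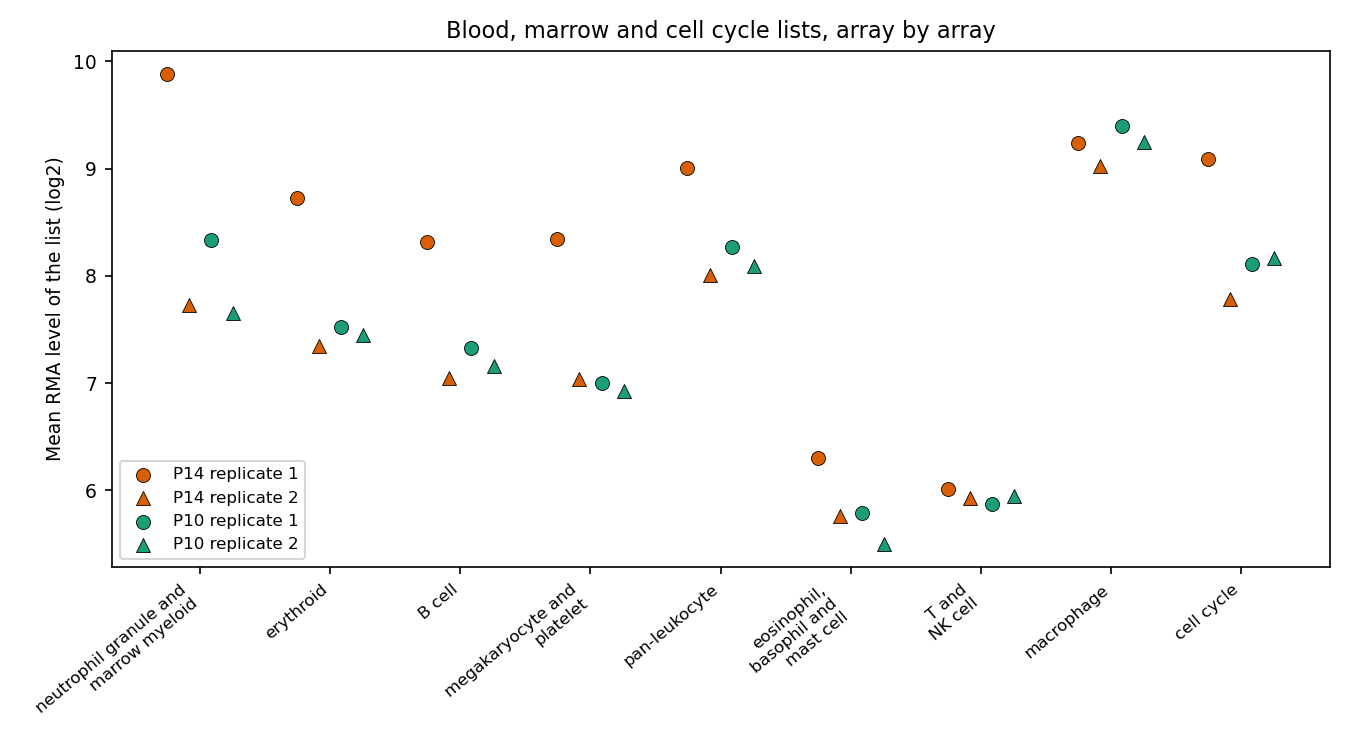
Mean RMA level (log2, y axis) of 9 gene lists (x axis) on each P14 array (orange) and each P10 array (green), with circles for replicate 1 and triangles for replicate 2. The circle of P14 lies above the other arrays for neutrophil, erythroid, B cell, megakaryocyte, pan-leukocyte and cell cycle genes, but not for macrophage genes.

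Genes of the cell cycle were high on the same array. All 32 were higher on P14 replicate 1 than on replicate 2, 24 of them over 2-fold, and the list averaged 9.09 and 7.78 at P14, against 8.11 and 8.17 at P10. Mki67, a protein of dividing cells, was at 11.49 and 9.45 at P14, against 9.97 and 9.60 at P10. Top2a, which untangles DNA at division, was at 10.10 and 8.25 at P14, against 8.78 and 8.66 at P10. On P14 replicate 2, 29 of the 32 lay below both P10 arrays, so the median difference was 0.30 with both P14 arrays, 1.04 without replicate 2 and −0.36 without replicate 1. The 12 genes of osteoclasts, the cells that resorb bone, divided in a like way: 9 lay above both P10 arrays on P14 replicate 1 and 7 below both on replicate 2, with a median difference of −0.01 that was 0.32 without replicate 2 and −0.40 without replicate 1.

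Over all 18201 genes, 258 (1.42%) were over 2-fold higher on P14 replicate 1 than on P14 replicate 2 and 5 (0.0275%) were over 2-fold lower. Between the P10 arrays 31 (0.17%) were over 2-fold higher on replicate 1 and 12 (0.0659%) on replicate 2. With all arrays, 0 of the 17 neutrophil, 16 erythroid and 32 cell cycle genes were higher at an unadjusted p under 0.05 with a fold over 1.5. Over all genes 1.46% were. The medians of these 3 lists were 1.65, 1.52 and 1.04 without P14 replicate 2. Without P14 replicate 1 they were −0.28, −0.12 and −0.36. Spiral ganglion and release genes past that limit were 7 each with all arrays. Their medians were 0.48 and 0.58 without P14 replicate 2, and 0.45 and 0.47 without P14 replicate 1.

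Immediate early genes, which neurons and other cells switch on within minutes of a stimulus, were not higher at P14. Of 33 members 4 were above and 11 below on both P14 arrays, 0 were higher and 2 lower past the unadjusted limit, and the median was −0.11. On P14 replicate 1, 28 members were higher than on replicate 2, and 12 lay above both P10 arrays. On replicate 2, 18 lay below both. The shares of all genes that did so were not counted. The median was 0.00 without replicate 2 and −0.17 without replicate 1. Egr1 stood at 11.74 and 11.36 at P14, against 12.55 and 12.39 at P10, a difference of −0.92 ± 0.29 (adjusted p = 0.467). Ier2 stood at 9.68 and 9.40 at P14, against 10.11 and 10.15 at P10 (difference −0.59 ± 0.15, adjusted p = 0.362), and Fos at 10.20 and 9.86 at P14, against 10.76 and 10.36 at P10. The activity genes Arc and Npas4 were low at both ages: Arc was at 6.05 and 6.28 at P14, against 6.32 and 6.14 at P10, and Npas4 at 4.79 and 4.58 at P14, against 4.77 and 4.69 at P10.

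By their medians, thyroid hormone genes were lower at P14, glucocorticoid and stress genes were higher and clock genes differed little. Of 8 genes that handle or answer thyroid hormone, which the cochlea needs for hearing to begin, 1 was above and 4 were below on both P14 arrays (median −0.17). Dio2, the enzyme that activates the hormone, stood at 11.86 and 11.92 at P14, against 12.43 and 12.63 at P10 (difference −0.64 ± 0.14, adjusted p = 0.347), and its difference between P21 and P14, −1.26, was called (adjusted p = 0.00495). Of 16 glucocorticoid and stress genes 9 were above and 2 below, with 2 past the unadjusted limit and a median of 0.25: Hspa1a, a heat shock protein, stood at 8.13 and 8.40 at P14, against 7.73 and 7.55 at P10, and Pdk4, a brake on glucose oxidation, at 9.86 and 9.46 at P14, against 9.16 and 8.96 at P10. Of 16 clock genes 3 were above and 1 below (median −0.02), and Per1 stood at 8.52 and 8.26 at P14, against 7.83 and 7.90 at P10, with a called difference of 1.44 between P21 and P14 (adjusted p = 0.00497).

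Most of the other lists had medians near 0. The median was 0.03 for 30 genes of oxidative phosphorylation (3 above, 1 below), −0.12 for 11 cytosolic ribosomal proteins (0 above, 8 below) and −0.02 for 12 imprinted growth genes (3 above, 2 below). It was −0.07 for 20 endothelial and pericyte genes (6 above, 6 below) and 0.15 for 14 skeletal muscle genes (2 above, 2 below). It was 0.08 for 19 interferon and MHC class I genes (5 above, 2 below). For 6 MHC class II genes it was 0.11 (1 above, 0 below), and −0.03 to 0.30 with 1 of the 4 arrays left out. For 10 complement and acute phase genes it was 0.05 (0 above, 1 below). Acta2, the actin of smooth muscle and some pericytes, was at 10.52 and 10.23 at P14, against 11.14 and 11.10 at P10 (difference −0.74 ± 0.32, adjusted p = 0.621).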

How the data were processed

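The authors hybridised Affymetrix mouse 3′ expression arrays with labelled total RNA and processed them in Expression Console by RMA and MAS5, versions not given in the sources used here. The deposited values are log2 RMA values and were used unchanged; they hold no depth and no detection calls. Of 45101 probe sets, 64 controls were left out. Of 45037 tested, 34957 had 1 gene symbol, 920 several and 9160 none. A gene is represented by its brightest probe set over the 12 arrays; in 8 named genes (Car8, Gabrb2, Kcna2, Kcnc1, Pcp2, Plet1, Slc4a1 and Top2a) another probe set had a difference of the other sign, at most 0.13 in size.

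P14 was compared with P10 by limma 3.58.1 (R 4.3.3) over 12 arrays in 6 stage groups (6 residual and 4.03 prior degrees of freedom), with Benjamini-Hochberg adjustment over all probe sets. Members and lists (41 lists, 678 of 751 entries matched) were chosen with earlier results of these data known. The rule named called genes by size, the largest difference of each list, and any blood, marrow or immediate early gene; since 0 were called, the other genes were chosen after their values were seen. Alternatives were a replicate block, an intensity trend, array weights, the 4 arrays alone, the methods' t-test, the dimmest 25% of probe sets left out, array medians made equal, a 2-fold limit, RNA balance as a covariate, each array left out and, per gene, the average of its probe sets.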

Additional observations from a re-analysis of the deposited data

How the results depend on the processing

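The count of 0 called probe sets was 0 with an intensity trend, the methods' t-test after adjustment, dim probe sets left out, equal array medians and a 2-fold limit. It was 2 (1 higher, 1 lower) with the replicate block, 1 (1 higher, 0 lower) with array weights or with RNA balance as a covariate, and 9 (9 higher, 0 lower) with the 4 arrays alone; averaged probe sets gave 3 of 18201 genes (2 higher, 1 lower). With 1 array left out it ranged between 0 and 77, the higher ones between 0 and 73 and the lower ones between 0 and 4. The 729 probe sets at an unadjusted p under 0.05 with a fold over 1.5 (460 higher, 269 lower) ranged between 635 and 1112 with 1 array left out (343 to 895 higher, 217 to 547 lower). They were 370 by the methods' t-test (260 higher, 110 lower), 1502 with RNA balance as a covariate (1105 higher, 397 lower) and 111 at a 2-fold limit (79 higher, 32 lower). The replicate numbers do not pair the samples: same-numbered P10 and P14 arrays deviated from their stage means with a correlation of 0.015, and over all pairs of stages the correlation ran between −0.125 and 0.317. Without detection calls, levels under the 25th percentile of an array may be background, so differences that start there, such as that of En2, can be understated. Values set against single arrays assume that the lone array left varies as the other stages do.

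Of 1553 values of 74 named genes under the alternatives, 17 had the other sign, 16 of them without P14 replicate 1. With 1 array left out the differences ran over these ranges, with the low end without P14 replicate 1 and the high end without P14 replicate 2: Camp −0.56 to 2.27, Ngp −0.31 to 2.50, Ltf −0.06 to 3.16, Lcn2 −0.38 to 3.04, Chil3 −0.13 to 3.17, Cd177 −0.09 to 2.85, Mpo −0.41 to 2.10, S100a9 −0.21 to 1.74, Klf1 −0.15 to 1.77, Hemgn −0.09 to 1.94, Rhag −0.10 to 2.19, Slc4a1 −0.14 to 1.48, Pou2af1 −0.25 to 1.80, Mki67 −0.33 to 1.71, Rrm2 −0.35 to 1.56 and Top2a −0.47 to 1.38. For Prg2 the range was −0.02 to 1.99, with its low end without P10 replicate 2.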

Other observations

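Further genes, chosen after their values were seen, differed on both P14 arrays outside the lists. Bpifa1, a secreted protein of the lining of airways and the middle ear, stood at 12.96 and 13.21 at P14, against 7.25 and 8.22 at P10, a difference of 5.35 ± 1.01 (40.8-fold, adjusted p = 0.328). It was high on 1 of the 2 P7 arrays too (7.20 and 11.48). Cyp2f2, a cytochrome P450 of airway secretory cells, stood at 7.31 and 7.40 at P14, against 5.55 and 5.83 at P10 (difference 1.67 ± 0.17, adjusted p = 0.0866), and its arrays lay closer together than those of Bpifa1. Ifi27l2a, an interferon-induced gene, stood at 8.62 and 9.03 at P14, against 7.81 and 7.09 at P10.

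Lower at P14 was Gcg, the precursor of glucagon, at 6.28 and 7.03 at P14, against 8.71 and 9.66 at P10 (difference −2.53 ± 0.35, adjusted p = 0.211), with a called difference of −1.88 between P21 and P14 (adjusted p = 0.0252). Agtr2, an angiotensin receptor of developing tissue, stood at 5.45 and 5.71 at P14, against 6.69 and 7.28 at P10. Klk8, a secreted protease, stood at 6.84 and 6.88 at P14, against 7.99 and 9.64 at P10, and Plet1, a surface protein of epithelial progenitors, at 7.33 and 7.84 at P14, against 8.80 and 9.77 at P10. Adipoq, the hormone adiponectin of fat cells, stood at 8.60 and 6.69 at P14, against 6.70 and 6.35 at P10, so that like the marrow genes it was high on P14 replicate 1.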
